A study of Gallus gallus with 50 samples.

Results

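High lysolecithin feed was set against unsupplemented feed in the jejunum, the middle segment of the small intestine, of broiler chickens. The 10 arrays were those titled for the jejunum and for either the higher Lysoforte level or the control feed, out of 50 arrays in the whole study. The lysolecithin high group held 5 birds whose feed carried 500 g/T of lysolecithin, which supplied 19 g/T of lysophosphatidylcholine (LPC). The control group held 5 birds whose feed had no supplement. All birds were male Cobb 500 broilers sampled on day 10, and RNA came from mucosa scraped off the segment, so each value averages all cells of the scraping. Fewer cells of a type and less RNA per cell cannot be told apart in such a sample. Feeds were given in adjoining pens on the floor, so pen and feed cannot be told apart from the labels. Each array is 1 bird, and batch labels 1 to 3 each hold birds of both groups. Replicate 1 is the only lysolecithin high bird of batch 1, and replicate 5 is the only control of batch 3. The number of birds limits the precision of every value. Other arrays of the study held jejunum of birds on lysolecithin low feed (250 g/T, with 9.5 g/T of LPC) or on purified LPC at the same LPC levels, and ileum of all 25 birds.

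Lysolecithin is a mixture of phospholipids that have lost a fatty acid chain, and it is added to feed as an emulsifier. LPC is one of its components and is also formed in the gut lumen when phospholipase cuts dietary and biliary phosphatidylcholine. Enterocytes of the jejunum take up these lysolipids with monoglycerides and fatty acids, rebuild glycerides and phospholipids from them, and export the fat as lipoproteins. The title of the study names collagen, the fibre protein of the connective tissue beneath the epithelium, so collagen genes are given below whether or not they passed the test.

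Values are log2 signals per probe set on the Affymetrix chicken genome array, deposited by the authors after RMA (robust multi-array average), which equalises the distribution of signal between arrays. Every difference is therefore relative to the bulk of the array. A difference is lysolecithin high minus control on the log2 scale, so 1 is a doubling, and it is given with its standard error (SE) from limma with diet and batch as terms over all 25 jejunum arrays. A probe set passed when its Benjamini-Hochberg adjusted p over 38382 probe sets was under 0.05. Many genes have several probe sets, and a gene is named by the one stated.

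The labelled segment was checked with a score: the mean signal of 15 jejunum-biased genes less the mean of 15 ileum-biased genes, with the genes picked anew for each bird while that bird was held out. It was 4.41 ± 1.47 (SD, n = 5) in lysolecithin high birds and 0.72 ± 4.27 (SD, n = 5) in control birds (exact two-sided permutation p = 0.0952). Lysolecithin high birds scored 1.82 to 5.41, while control birds scored -5.05 to 5.01 with a second lowest of -1.27. Control replicate 2, at -5.05, lay on the ileum side of the halfway value of -1.80, as did 1 jejunum array of the LPC low diet. In the ileum 2 of 25 arrays lay on the jejunum side, lysolecithin high replicate 4 at 3.35 and LPC low replicate 1 at 3.51, where the others had -6.33 to -4.56. These are called the arrays in doubt of their segment. The 5′ minus 3′ signal of 3 control transcripts, an index of RNA integrity or labelling, was -0.64 ± 0.29 in lysolecithin high and -0.97 ± 0.14 in control birds (SD, n = 5 each; exact two-sided permutation p = 0.0635). Only RNA with an integrity number above 8.7 was hybridised, per the labels. The part of the segment score and of the index in the results was not tested beyond the fits given below.

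Of 38382 probe sets 318 passed, which is 0.829% of those tested (limma). Lower signal with lysolecithin high feed made up 254 of them (0.662% of all tested) and higher signal 64 (0.167%). The fallen probe sets had a median difference of -0.81 and the risen ones of 0.70. All 5 lysolecithin high birds lay beyond all 5 control birds in 183 of the 318. Over all probe sets, passed or not, all 5 lay above all controls in 1.4% and below all controls in 1.83%. At an unadjusted p under 0.05 stood 6828 probe sets, or 17.8%. The 318 included 267 with a single gene symbol, from 232 genes, which is 1.78% of the 13009 genes on the array. The count was 4 when only the 10 arrays compared were fitted, and leaving out 1 bird gave 105 (lysolecithin high replicate 1) to 1224 (lysolecithin high replicate 2). In 29 of the 232 genes more than 1 probe set passed, and in 28 of these 29 the passing probe sets were lower.

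**Figure D1:**
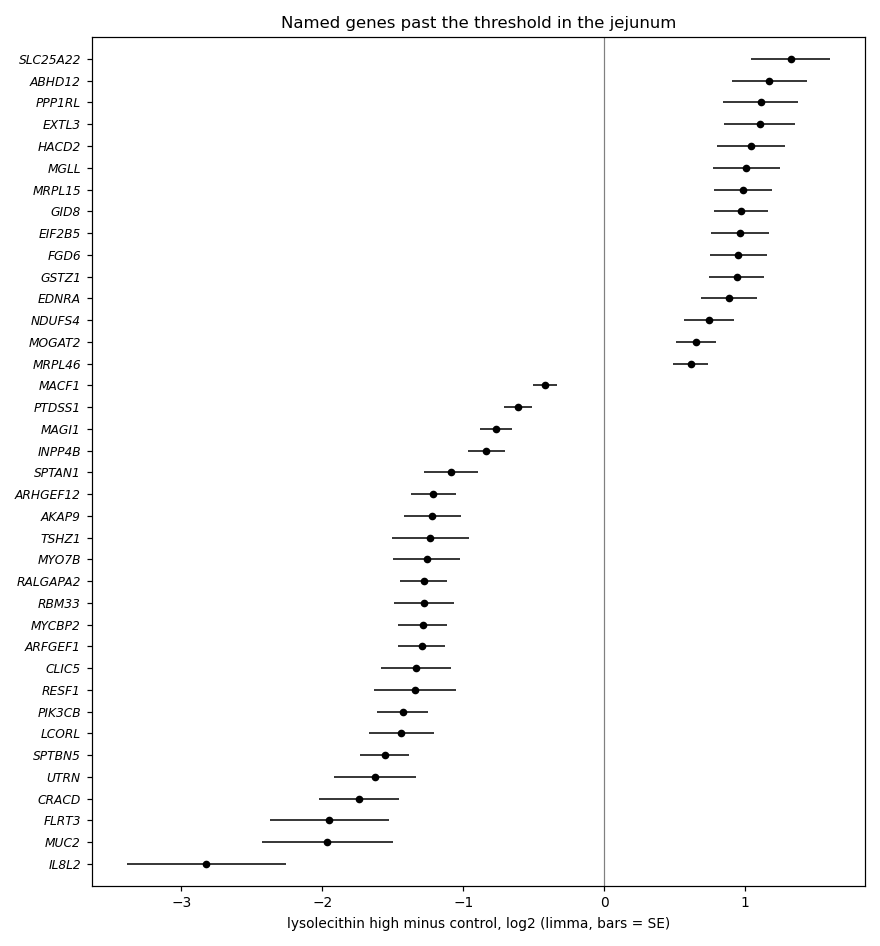
Differences (lysolecithin high minus control, log2, horizontal axis) with SE bars from limma for the 38 named genes that passed, sorted from the largest increase at the top to the largest decrease at the bottom. The decreases reach -2.82 (IL8L2) and the increases 1.32 (SLC25A22).

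Genes of the membrane skeleton and of actin capping were among the largest decreases. This skeleton is the spectrin and actin mesh under the cell membrane, and its members tie membrane proteins to the cytoskeleton. CRACD, an inhibitor of actin capping proteins, had log2 signals of 5.52, 6.23, 5.68, 6.13 and 5.25 in the lysolecithin high birds, against 7.77, 7.22, 7.42, 7.44 and 7.29 in the control birds. Every lysolecithin high bird lay below every control. CRACD fell by 1.74 ± 0.29 (SE; limma adjusted p = 0.00569), and all 4 of its probe sets passed, at -1.74 to -1.44. SPTBN5, a beta spectrin, had 6.39, 7.60, 7.49, 8.08 and 8.26 in lysolecithin high birds, against 8.46, 7.99, 9.20, 9.12 and 9.21 in controls. The groups overlapped, since control replicate 2 lay below 2 of the lysolecithin high birds, and within batches 1, 2 and 3 the differences were -1.83, -1.61 and -1.04. SPTBN5 fell by 1.56 ± 0.18 (limma adjusted p = 0.000515), 4 of its 9 probe sets passed, and all 9 were negative, at -1.65 to -0.20. The brightest of the 9, with a mean of 12.03 over the 25 jejunum arrays, had -0.20 and did not pass.

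UTRN, or utrophin, which ties actin to the membrane, had 4.05, 5.35, 5.61, 6.08 and 5.34 in lysolecithin high birds, against 5.08, 4.92, 7.35, 7.03 and 7.67 in controls. Both controls of batch 1 were low, so the groups overlapped, and the difference was -0.95 in batch 1 against -1.71 and -1.96 in batches 2 and 3. UTRN fell by 1.63 ± 0.29 (limma adjusted p = 0.0104). Of its other 5 probe sets 1 passed, at -0.82, and the rest had -0.68 to 0.05. SPTAN1, the non-erythroid alpha spectrin, fell by 1.09 ± 0.19 (limma adjusted p = 0.00962). Its signal was 5.35 ± 1.04 in lysolecithin high and 6.10 ± 0.47 in control birds (SD, n = 5 each). The other 2 probe sets of SPTAN1 were far brighter, with means of 10.06 and 10.27 over the 25 jejunum arrays. They had -0.26 and -0.20 and did not pass. MACF1, which links actin to microtubules, fell by 0.42 ± 0.09 (adjusted p = 0.0257) by 1 of 13 probe sets, and the other 12 had -0.24 to 0.44. The brightest of the 13 had 0.15. Read by the probe set of highest mean, which is the rule for all lists below, 1 of 27 listed genes of this group passed, CRACD, and the list's median was -0.01 against 0.03 over all 13009 genes. By that rule 0.7% of all genes passed, 0.254% higher and 0.446% lower. The lower signals were thus a matter of single genes and of some of their probe sets, and not of the list as a whole.

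**Figure D2:**
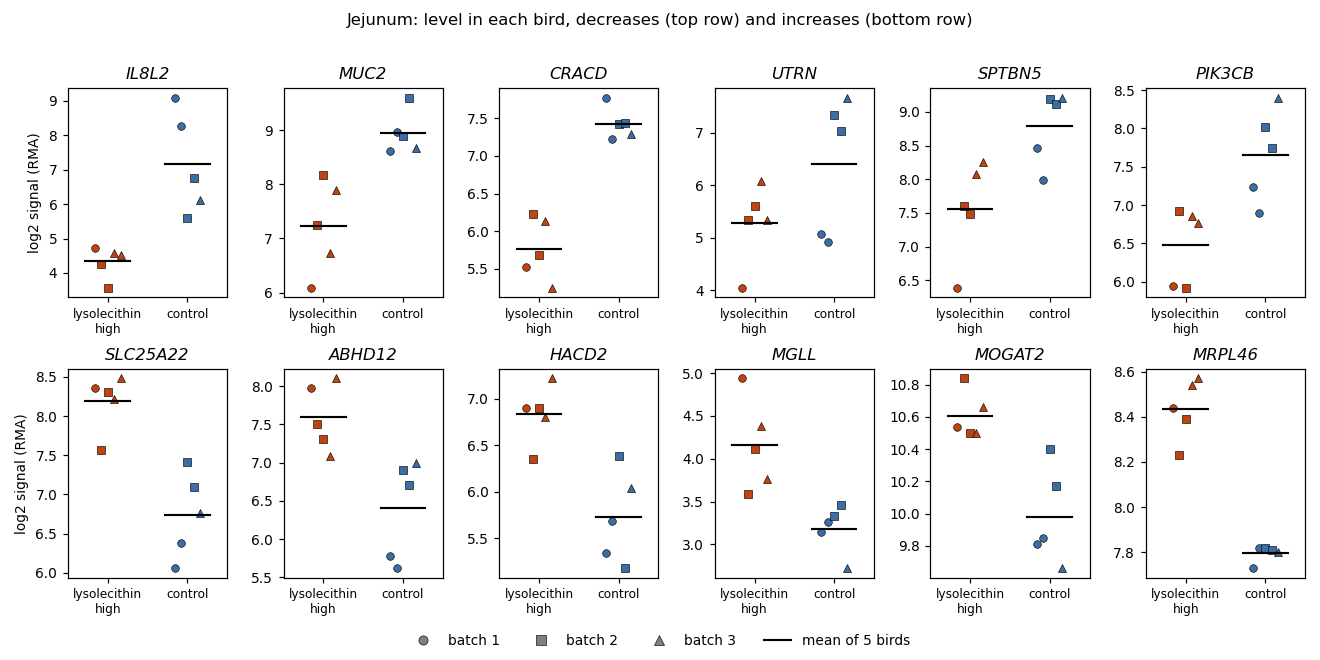
Log2 signal (vertical axis) of 12 genes in each bird, lysolecithin high to the left of control in each panel. The upper row holds genes that fell and the lower row genes that rose, point shapes mark the batch, and horizontal lines are means of 5 birds; in IL8L2 the lysolecithin high birds lie at 3.57 to 4.73 and the controls at 5.59 to 9.09.

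Phosphoinositide kinases and regulators of small GTPases, which steer membrane traffic and cell shape, also held decreases. PIK3CB, the beta catalytic subunit of phosphoinositide 3-kinase, had 5.94, 6.92, 5.92, 6.86 and 6.76 in lysolecithin high birds, against 7.23, 6.89, 8.02, 7.74 and 8.40 in controls. In 4 of 5 lysolecithin high birds it lay below every control, and replicate 2, at 6.92, lay just above control replicate 2. PIK3CB fell by 1.43 ± 0.18 (limma adjusted p = 0.000995), and 1 of its other 2 probe sets passed, at -0.72. The brightest probe set of PIK3CB, with a mean of 7.67 over the 25 jejunum arrays, had -0.51 and did not pass (limma adjusted p = 0.146). INPP4B, a phosphoinositide phosphatase, fell by 0.84 ± 0.13 (adjusted p = 0.004), at 4.48 ± 0.22 in lysolecithin high and 5.20 ± 0.39 in control birds (SD, n = 5 each). It passed by 1 of 4 probe sets, and the others had -0.34 to 0.27. Of the 31 listed kinases and phosphatases 1 passed by the probe set of highest mean, INPP4B and not PIK3CB, and their median was 0.05. PIK3CA, the alpha subunit, had -0.69 ± 0.22 (adjusted p = 0.124) and PDPK1, a kinase recruited by phosphoinositides, -0.49 ± 0.14 (adjusted p = 0.0944). AKT1, a kinase downstream of phosphoinositide 3-kinase, stood on the other side at 0.55 ± 0.16 (adjusted p = 0.0999). At an unadjusted p under 0.05 stood 4 of the 31 higher and 4 lower, where 12.4% of all genes stood higher and 6.98% lower.

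RALGAPA2, a subunit of the complex that switches off Ral GTPases, had 5.59, 6.06, 5.83, 6.24 and 5.73 in lysolecithin high birds, against 6.69, 6.76, 7.40, 6.80 and 7.56 in controls. The groups did not overlap, and RALGAPA2 fell by 1.28 ± 0.17 (limma adjusted p = 0.000995), though its other probe set had 0.13. ARFGEF1, which activates ARF GTPases at the Golgi, had 5.69, 7.99, 7.73, 8.09 and 8.07 in lysolecithin high birds, against 7.54, 7.41, 8.82, 9.09 and 9.05 in controls. Within each batch the lysolecithin high birds were lower, by -1.78, -1.09 and -0.97, while across batches the groups overlapped. ARFGEF1 fell by 1.29 ± 0.17 (adjusted p = 0.000995) by its only probe set. ARHGEF12, a guanine nucleotide exchange factor, fell by 1.21 ± 0.16 (adjusted p = 0.000995), with every lysolecithin high bird below every control. Its other 3 probe sets had -0.38 to 0.19. The brightest, with a mean of 10.54 over the 25 jejunum arrays, had -0.38 and did not pass. By the probe set of highest mean 2 of 39 listed exchange and activating proteins passed, both lower, and the list's median was -0.07.

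IL8L2, a chicken relative of interleukin 8 that attracts heterophils, had the largest difference among the probe sets that passed. Its signal was 4.73, 4.27, 3.57, 4.58 and 4.51 in lysolecithin high birds, against 9.09, 8.26, 5.59, 6.77 and 6.12 in controls. The lysolecithin high birds lay close together, the controls were spread over several log2 units with both birds of batch 1 highest, and the groups did not overlap. The lysolecithin high values, at 3.57 to 4.73, lay near the dim end of the array. How far this bounds their closeness and the size of the difference was not tested. IL8L2 fell by 2.82 ± 0.56 (limma adjusted p = 0.0202), or 7.08-fold, with -3.95, -2.26 and -1.57 in the 3 batches. IL8L1, its close relative, had 4.96, 5.62, 5.75, 5.26 and 7.87 in lysolecithin high birds, against 7.66, 7.35, 6.60, 6.72 and 8.88 in controls. In IL8L1 4 of 5 lysolecithin high birds were below all controls, and the difference of -1.75 ± 0.66 did not pass (adjusted p = 0.178).

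Other inflammatory genes stood lower without passing. NFKBIZ, a nuclear regulator of NF-κB targets, had 8.55, 9.63, 8.87, 8.89 and 8.76 in lysolecithin high birds, against 10.60, 10.18, 10.16, 9.90 and 9.98 in controls. The groups did not overlap, yet its difference of -1.19 ± 0.32 missed the threshold (limma adjusted p = 0.0829). SOCS3, a feedback inhibitor of cytokine signalling, had -1.53 ± 0.48 (adjusted p = 0.118), and IL22, a cytokine that acts on epithelium, -0.57 ± 0.21 (adjusted p = 0.169). Of 39 listed chemokines and cytokines IL8L2 alone passed, 24 were negative, and the median was -0.08. Markers of heterophils and granulocytes had a median of -0.06, with 4 of 10 positive and none passed, and their mean signal was 4.63 to 4.98 in lysolecithin high and 4.45 to 5.00 in control birds.

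MUC2 encodes the mucin that goblet cells secrete as a gel. It had 6.09, 7.25, 8.18, 6.73 and 7.90 in lysolecithin high birds, against 8.61, 8.96, 8.89, 9.60 and 8.68 in controls. All 5 lysolecithin high birds lay below all controls, and MUC2 fell by 1.96 ± 0.47 (limma adjusted p = 0.0495), just inside the threshold. The remaining 2 probe sets, at -1.62 and -1.19, missed the threshold. B3GALT5, a galactosyltransferase of glycan chains, had 5.19, 6.50, 6.46, 5.48 and 7.16 in lysolecithin high birds, against 8.20, 10.12, 7.15, 10.14 and 7.98 in controls. Only replicate 5 of the lysolecithin high birds overlapped the controls, and the difference of -2.86 ± 0.71 lay just outside the threshold (adjusted p = 0.0587). Of 16 listed mucus and goblet cell genes 1 passed, 7 were positive, and the median was -0.20, which became 0.03 with the segment score as a term.

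Brush border genes held 1 gene past the threshold. MYO7B, a myosin of the complex that links the tips of microvilli, had 5.65, 6.59, 5.58, 6.19 and 6.82 in lysolecithin high birds, against 6.68, 7.40, 7.40, 7.40 and 7.60 in controls. Replicate 5 of the lysolecithin high birds overlapped control replicate 1 and no other bird did. MYO7B fell by 1.26 ± 0.24 (limma adjusted p = 0.0146) by the weaker of its 2 probe sets, and the brighter one had -0.72 ± 0.25 (adjusted p = 0.149). CLIC5, a chloride intracellular channel protein found at microvilli, fell by 1.33 ± 0.25 (adjusted p = 0.0126), at 6.90 ± 0.31 in lysolecithin high and 8.15 ± 0.53 in control birds (SD, n = 5 each), without overlap. Only 1 of its 4 probe sets passed, and the others had -1.42, -0.50 and -0.07, with the value of -0.50 from the brightest. TMPRSS15, or enteropeptidase, which activates trypsinogen, had 9.43, 9.78, 7.66, 10.89 and 10.74 in lysolecithin high birds, against 5.59, 3.70, 8.35, 4.57 and 8.84 in controls. That difference of 3.36 ± 1.17 is larger than any that passed, but the control birds differed among themselves by more than it and it did not pass (adjusted p = 0.154). None of the 28 listed brush border genes passed by the probe set of highest mean, 11 were positive, and their median was -0.09.

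At cell junctions MAGI1, a scaffold protein, had 7.12, 7.11, 6.98, 7.24 and 7.16 in lysolecithin high birds, against 8.34, 7.89, 7.55, 7.77 and 7.99 in controls. The groups did not overlap, and MAGI1 fell by 0.77 ± 0.12 (limma adjusted p = 0.0033), while none of its other 8 probe sets passed, at -1.32 to -0.04. The brightest probe set of MAGI1 had -0.36. OCLN, the tight junction protein occludin, had -0.55 ± 0.20 (adjusted p = 0.165), and 14 of 28 listed junction genes were positive, with a median of 0.00 and none passed by the probe set of highest mean.

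The other named decreases came from genes of varied function. LCORL, a transcription corepressor, had 5.83, 7.15, 7.29, 6.83 and 6.74 in lysolecithin high birds, against 7.83, 7.60, 8.23, 8.38 and 8.34 in controls. It fell by 1.44 ± 0.23 (limma adjusted p = 0.00493) with no overlap, and all 6 of its probe sets were negative, of which 2 passed. AKAP9, which anchors protein kinase A at the centrosome and Golgi, fell by 1.22 ± 0.20 (adjusted p = 0.00569), at 6.23 ± 0.47 in lysolecithin high and 7.35 ± 0.11 in control birds (SD, n = 5 each). TSHZ1, a zinc finger transcription factor, fell by 1.23 ± 0.27 (adjusted p = 0.0349), at 5.58 ± 0.37 against 6.79 ± 0.32 in controls. Neither AKAP9 nor TSHZ1 overlapped between the groups. The other probe set of AKAP9, brighter with a mean of 10.88 over the 25 jejunum arrays, had -0.54 without passing. Those of TSHZ1 had -0.86, which passed, and -0.34.

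MYCBP2, a ubiquitin ligase, had 4.00, 5.79, 6.09, 6.93 and 6.43 in lysolecithin high birds, against 6.00, 5.63, 7.15, 7.37 and 7.57 in controls. Batch 1 was low in both groups, and the batch differences were -1.81, -1.32 and -0.89. MYCBP2 fell by 1.29 ± 0.17 (limma adjusted p = 0.00142), with 3 of its 5 probe sets past. The brightest of the 5, with a mean of 9.07 over the 25 jejunum arrays, had -0.01 and did not pass. RBM33, an RNA-binding protein, fell by 1.28 ± 0.21 (adjusted p = 0.00624), and RESF1, a factor of retroelement silencing, by 1.34 ± 0.29 (adjusted p = 0.0315). RBM33 passed by 1 of 5 probe sets, with the others at -0.41 to -0.16 and the value of -0.16 from the brightest of them. The other, brighter probe set of RESF1 had -0.53 without passing. FLRT3, an adhesion protein with leucine-rich repeats, had 4.10, 5.12, 4.57, 4.01 and 3.82 in lysolecithin high birds, against 4.64, 4.07, 6.95, 7.29 and 7.04 in controls. The controls of batch 1 were as low as the lysolecithin high birds, so the difference was -0.26 in batch 1 against -2.27 and -3.12 in the others. FLRT3 fell by 1.95 ± 0.42 over all batches (adjusted p = 0.0332), and its other 3 probe sets had -0.01 to 0.17.

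Enzymes that modify chromatin and proteins that read those marks were counted after their values had been seen, by symbol families such as KMT2, KDM, KAT, BRD, CHD and PHF. Of 78 such genes 20 had a probe set past the threshold, all lower, where 1.78% of all genes had any probe set past. A gene with more probe sets has more chances to have 1 past, and these 20 have from 1 (KDM3B) to 8 (INO80). The share of 1.78% is thus not a matched baseline. By the probe set of highest mean 6 passed, all lower, where 0.446% of all genes passed lower. The median of the 78 was -0.09. BRD1, a bromodomain protein, had -0.90 ± 0.17 (limma adjusted p = 0.0159), PHF3 -0.77 ± 0.13 (adjusted p = 0.00708) and KDM3B, a histone demethylase, -0.77 ± 0.14 (adjusted p = 0.0106). ATRX, a chromatin remodeller, had -0.63 ± 0.12 (adjusted p = 0.0169). BRD1 passed by 1 of 6 probe sets, with the others reaching 0.22, and ATRX by 1 of 7, with the others reaching 0.04. PHF3 passed by 1 of 2, and its other probe set had -0.14. These counts describe the called genes and carry no test.

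Among genes that rose, several act on lipids. ABHD12, a lipase of lysophosphatidylserine, had 7.98, 7.50, 7.31, 7.08 and 8.10 in lysolecithin high birds, against 5.78, 5.62, 6.90, 6.71 and 7.00 in controls. Every lysolecithin high bird lay above every control, and ABHD12 rose by 1.17 ± 0.26 (limma adjusted p = 0.0389), with 2.28 in batch 1 against 0.60 and 0.59 in batches 2 and 3. The other probe set of ABHD12, brighter with a mean of 9.89 over the 25 jejunum arrays, had 0.67 without passing. MGLL, monoglyceride lipase, had 4.94, 3.59, 4.11, 4.38 and 3.76 in lysolecithin high birds, against 3.14, 3.26, 3.33, 3.46 and 2.72 in controls. MGLL rose by 1.01 ± 0.24 (adjusted p = 0.0469) by a dim probe set without overlap, and its other 4 had -0.12 to 1.64 without passing. MOGAT2, which joins a fatty acid to absorbed monoglyceride, had 10.54, 10.84, 10.50, 10.50 and 10.66 in lysolecithin high birds, against 9.81, 9.85, 10.40, 10.17 and 9.66 in controls. The 5 lysolecithin high birds lay above all controls in a narrow range, and MOGAT2 rose by 0.65 ± 0.14 (adjusted p = 0.0302), while its other 3 probe sets had -0.22 to 0.85.

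HACD2, a dehydratase of very long chain fatty acid elongation, had 6.90, 6.35, 6.90, 6.80 and 7.22 in lysolecithin high birds, against 5.34, 5.69, 6.39, 5.18 and 6.04 in controls. It rose by 1.04 ± 0.24 (limma adjusted p = 0.0438), with replicate 2 just below the highest control, and its other, brighter probe set had 0.46 without passing. DGAT2, which adds the last fatty acid of triglyceride, had a difference of 1.51 ± 0.43 and all 5 lysolecithin high birds above all controls, but did not pass (adjusted p = 0.0944). The other probe set of DGAT2 had -0.09. PLA2G12B, a catalytically inactive relative of secreted phospholipases, had 0.83 ± 0.24 (adjusted p = 0.0915), and GPAT3, which starts glycerolipid synthesis, 0.58 ± 0.21 (adjusted p = 0.174). In the opposite direction PTDSS1, which makes phosphatidylserine from phosphatidylcholine, had 4.36, 4.68, 4.51, 4.27 and 4.26 in lysolecithin high birds, against 5.03, 5.06, 4.86, 4.97 and 5.28 in controls. PTDSS1 fell by 0.61 ± 0.10 (adjusted p = 0.00496) without overlap. Its other probe set, brighter with a mean of 7.73 over the 25 jejunum arrays, had -0.04 without passing. ACACA, which commits carbon to fatty acid synthesis, had -0.87 ± 0.25 (adjusted p = 0.0914), and its other probe sets had -0.31 and 0.02.

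As a list, 24 of 28 lipid absorption and lipoprotein genes were positive, with a median of 0.33, where 54.7% of all genes were positive and their median was 0.03. MOGAT2 alone passed by the probe set of highest mean, and 9 of 28 stood higher at an unadjusted p under 0.05, against 12.4% of all genes. The list's mean signal was 9.79 to 10.05 in lysolecithin high and 8.56 to 9.85 in control birds, with control replicate 2 lowest, and the list's median was 0.16 without the arrays in doubt and 0.07 with the segment score as a term. Phospholipid and lysophospholipid genes had a median of 0.13 (23 of 37 positive, none passed by that probe set), fatty acid elongation 0.11 (10 of 17) and fatty acid oxidation 0.31 (18 of 21 positive, none passed). In cholesterol synthesis 3 of 17 were positive, with a median of -0.27 and none passed. With the segment score as a term the median of cholesterol synthesis was 0.09, on the other side of 0, that of fatty acid oxidation 0.07 and that of phospholipid genes 0.07.

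Mitochondrial genes stood higher in most members by small amounts. SLC25A22, a mitochondrial glutamate carrier, had 8.36, 7.57, 8.30, 8.22 and 8.48 in lysolecithin high birds, against 6.06, 6.38, 7.41, 7.10 and 6.77 in controls. It had the largest increase of a named gene, by 1.32 ± 0.28 (limma adjusted p = 0.0276) without overlap, and its other, brighter probe set had 0.42 ± 0.15 (adjusted p = 0.16). MRPL46, of the large mitochondrial ribosomal subunit, had 8.44, 8.23, 8.39, 8.54 and 8.57 in lysolecithin high birds, against 7.73, 7.82, 7.82, 7.81 and 7.80 in controls. The controls hardly differed from one another, no bird overlapped, and MRPL46 rose by 0.61 ± 0.12 (adjusted p = 0.0197). MRPL15, of the same subunit, had 8.16, 7.68, 7.99, 8.13 and 8.41 in lysolecithin high birds, against 6.55, 6.94, 7.37, 6.81 and 7.49 in controls. MRPL15 rose by 0.99 ± 0.21 (adjusted p = 0.0274) without overlap, while its other 2 probe sets had 0.05 and 0.06. NDUFS4, a subunit of respiratory complex I, rose by 0.74 ± 0.18 (adjusted p = 0.0498), at 6.47 ± 0.25 in lysolecithin high and 5.70 ± 0.22 in control birds (SD, n = 5 each), and its other probe set had -0.40.

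Over the mitochondrial ribosome 62 of 66 genes were positive, with a median of 0.27, and 2 passed. Of all genes 54.7% were positive, with a median of 0.03. At an unadjusted p under 0.05 stood 27 of the 66 higher and 0 lower, where 12.4% of all genes stood higher and 6.98% lower. The respiratory chain and ATP synthase had 48 of 54 positive, a median of 0.25 and 1 gene past. Its list means differed by 0.47, 0.08 and 0.17 within batches 1, 2 and 3. The largest of these rests on replicate 1, the only lysolecithin high bird of batch 1, so bird and batch cannot be told apart. Mean signals of the mitochondrial ribosome were 7.85 to 8.36 in lysolecithin high and 7.70 to 8.01 in control birds, and within the batches the means differed by 0.29, 0.22 and 0.40. Ribosomal proteins of the cytosol had a median of 0.07 and none passed, and mitochondrial carriers had 0.17, with 22 of 29 positive. With the segment score as a term the medians were 0.20 for the mitochondrial ribosome, 0.12 for the respiratory chain and 0.07 for the carriers.

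The remaining increases came from varied functions. GSTZ1, an enzyme of tyrosine breakdown, had 9.37, 8.67, 8.18, 8.33 and 8.91 in lysolecithin high birds, against 7.43, 7.62, 7.98, 7.85 and 7.93 in controls, and rose by 0.94 ± 0.20 (limma adjusted p = 0.0259). EIF2B5, of the factor that recharges eIF2 in translation, rose by 0.97 ± 0.21 (adjusted p = 0.0294), at 6.33 ± 0.28 in lysolecithin high and 5.33 ± 0.27 in control birds (SD, n = 5 each). GID8, of a ubiquitin ligase complex, rose by 0.97 ± 0.19 (adjusted p = 0.0184), EXTL3, a glycosyltransferase of heparan sulfate, by 1.10 ± 0.25 (adjusted p = 0.0414), and FGD6, an exchange factor of Cdc42, by 0.95 ± 0.20 (adjusted p = 0.0306). In these 5 genes all lysolecithin high birds lay above all controls. GID8 passed by 1 of 4 probe sets, with the others, all brighter, at 0.11 to 0.31. EXTL3 passed by 1 of 3, with the others at 0.11 and 0.79 and the value of 0.79 from a brighter one. FGD6 passed by 1 of 5, with the others at -0.12 to 0.21. EDNRA, an endothelin receptor of smooth muscle, rose by 0.88 ± 0.20 (adjusted p = 0.0379), with 3.83, 2.89, 4.34, 4.05 and 3.14 in lysolecithin high birds, against 2.86, 2.64, 2.69, 2.96 and 2.73 in controls, all at the dim end of the array and with only replicate 2 of the lysolecithin high birds among the controls. PPP1RL rose by 1.11 ± 0.26 (adjusted p = 0.0498), and its other, brighter probe set had 0.23 without passing.

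Collagen genes had large positive differences in some members and none passed. COL3A1, the type III fibrillar collagen of loose connective tissue, had 10.94, 9.75, 11.90, 11.29 and 8.43 in lysolecithin high birds, against 9.07, 8.57, 9.09, 9.43 and 8.17 in controls. COL1A1, a chain of type I collagen, had 8.99, 7.98, 10.06, 9.69 and 6.71 in lysolecithin high birds, against 7.61, 7.90, 7.06, 7.63 and 6.17 in controls. In both genes 4 lysolecithin high birds lay above all controls and replicate 5 lay among them. The differences were 1.65 ± 0.74 for COL3A1 and 1.47 ± 0.71 for COL1A1 (limma adjusted p = 0.254 and 0.285). COL1A2, the partner chain, had 0.02 ± 0.11 by its probe set of highest mean (adjusted p = 0.95), and its other 7 probe sets had -0.13 to 2.03, none past. COL6A3, of type VI collagen, had 1.72 ± 0.68 (adjusted p = 0.197), COL12A1 1.51 ± 0.58 (adjusted p = 0.189) and COL13A1, a transmembrane collagen, -0.58 ± 0.21 (adjusted p = 0.17).

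Of 22 listed collagens 13 were positive, the median was 0.02, and 7 stood higher and 1 lower at an unadjusted p under 0.05, against 12.4% and 6.98% of all genes. Since the study's title names collagen, the direction of this list is not independent evidence. Their mean signal was 6.55, 6.16, 6.81, 6.66 and 5.80 in lysolecithin high birds, against 6.10, 5.94, 5.88, 6.12 and 5.77 in controls, so 4 of 5 lysolecithin high birds lay above all controls. Within the batches the means differed by 0.53, 0.48 and 0.46. Collagen processing and crosslinking genes had a median of 0.10 with 16 of 20 positive, among them LOXL2, a lysyl oxidase, at 0.63 ± 0.18 (limma adjusted p = 0.0915) and CRTAP, of collagen hydroxylation, at 1.21 ± 0.37 (adjusted p = 0.11).

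Other stromal genes moved with collagen bird by bird. Fibroblast and matrix genes had a median of 0.75 and 26 of 29 were positive, with none past the adjusted threshold. At an unadjusted p under 0.05 stood 17 higher and 1 lower, against 12.4% and 6.98% of all genes. MGP, a matrix protein that inhibits calcification, had 10.27, 8.73, 11.07, 10.60 and 7.62 in lysolecithin high birds, against 7.83, 6.18, 7.81, 7.69 and 6.74 in controls, a difference of 2.43 ± 0.72 (limma adjusted p = 0.103). VIM, the intermediate filament vimentin of mesenchymal cells, had 1.35 ± 0.39 (adjusted p = 0.0931) with all lysolecithin high birds above all controls. Smooth muscle genes had a median of 0.26 with 13 of 16 positive, and MYH11, the smooth muscle myosin heavy chain, had 7.18, 5.85, 8.76, 8.82 and 4.02 in lysolecithin high birds, against 5.42, 3.70, 5.01, 6.57 and 4.10 in controls. Replicate 5 was the lowest of the lysolecithin high birds in collagen, fibroblast, smooth muscle, endothelial and macrophage lists alike, and replicates 1, 3 and 4 were the highest 3. How much muscle and connective tissue each scraping took up was not measured, and its part in these differences was not tested.

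Macrophage and dendritic cell markers had a median of 0.83, with 10 of 11 positive and none past the adjusted threshold. Of these markers 4 stood higher at an unadjusted p under 0.05, against 12.4% of all genes. LY86, a partner of a toll-like receptor homologue, had 7.95, 6.20, 7.94, 8.09 and 5.24 in lysolecithin high birds, against 5.61, 4.83, 5.45, 5.96 and 4.85 in controls (1.78 ± 0.48; limma adjusted p = 0.0816). The mean of these markers was 7.49, 6.35, 7.39, 7.34 and 5.72 in lysolecithin high birds, against 6.62, 6.14, 6.00, 6.58 and 5.63 in controls. Endothelial markers had a median of 0.29 (9 of 10 positive) and crypt and stem cell markers 0.25 (8 of 12), and cell cycle genes had 0.44 (31 of 35), all without a gene past. Medians of T cell (0.07), B and plasma cell (0.06), enteric neuron and glia (-0.03), enteroendocrine (-0.03) and epithelial markers (-0.05) were close to that of all genes. Pancreas markers had a median of -0.10 and mean signals of 3.89 to 4.23 in lysolecithin high and 4.16 to 4.26 in control birds, near the dim end of the array. Interferon response genes had 0.28 (22 of 29 positive) and chaperones of the endoplasmic reticulum -0.07 (10 of 25), none past. Erythrocyte markers had 0.37 (6 of 7 positive) and basement membrane genes 0.21 (13 of 19), likewise with none past.

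**Figure D3:**
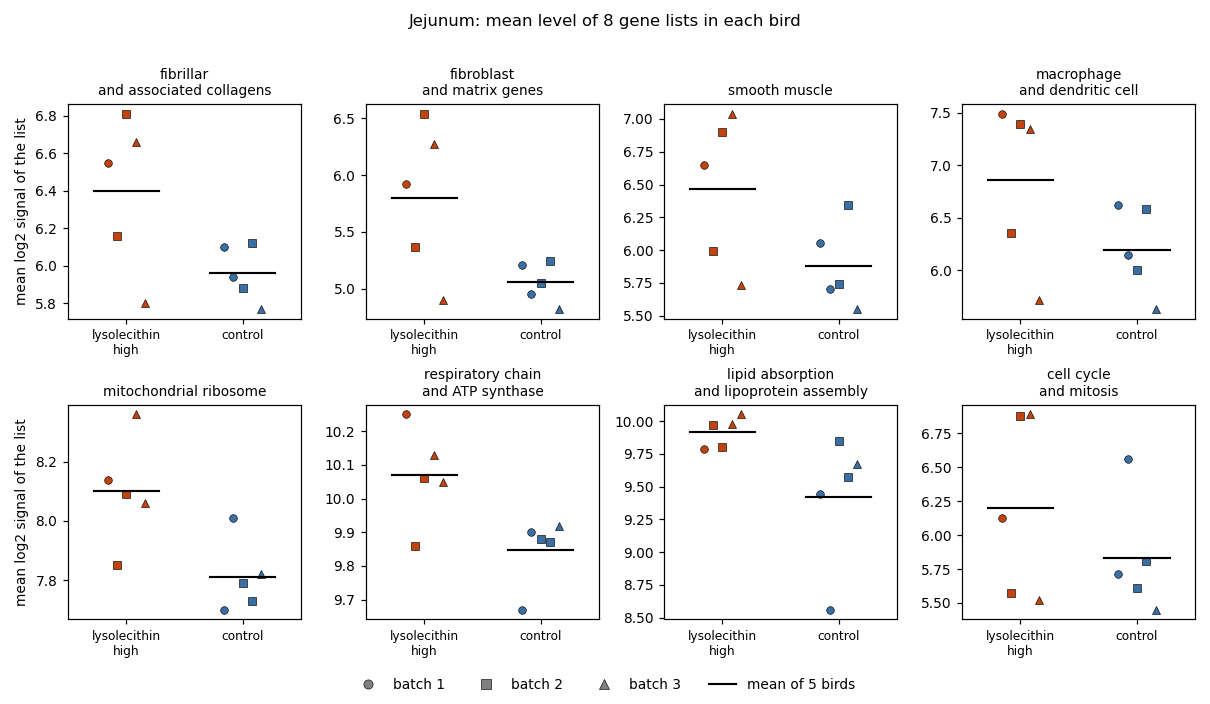
Mean log2 signal (vertical axis) of 8 gene lists in each bird, lysolecithin high to the left of control, with point shapes for the batch and lines for the mean of 5 birds. In the 4 stromal and macrophage lists of the upper row lysolecithin high replicate 5, a batch 3 triangle, lies with the controls. In the smooth muscle and macrophage lists lysolecithin high replicate 2 also lies within the range of the controls.

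The named genes were followed through the other fits. By the rule for naming, 38 genes passed, 15 higher and 23 lower. All lysolecithin high birds lay beyond all controls in 25 of the 38, against 183 of all 318 probe sets that passed. Over all probe sets they lay above all controls in 1.4% and below all controls in 1.83%. The named genes were picked by their differences in these same birds, so the count of 25 is no separate support. The differences of all 38 genes had the same sign in each of the 3 batches. Since the genes were chosen by a fit with batch as a term on the same birds, such agreement was likely beforehand. Of 97 other probe sets of 32 of these genes 12 passed, against 0.829% of all probe sets, and 84 had the same sign. Probe sets of the same gene are not independent, so that share is not a matched baseline. All 12 belonged to decreases (12 of 74), and of the 23 other probe sets of the increases 0 passed and 18 had the same sign. In 25 of the 32 genes no other probe set passed. Leaving out each bird in turn ended the calls of all 15 increases in at least 1 of 10 fits, and 15 of the 23 decreases passed in all 10. CRACD, UTRN, SPTBN5, SPTAN1, LCORL, PIK3CB, INPP4B, ARFGEF1, ARHGEF12, RALGAPA2, MYCBP2, RBM33, AKAP9, MAGI1 and PTDSS1 were those 15. Without a batch term 16 of the 38 passed (7 increases, 9 decreases), and with batch as a random block 10 passed (5 of each direction).

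Without lysolecithin high replicate 1 all 15 increases lost the threshold (limma adjusted p = 0.0612 to 0.193), as did CLIC5, IL8L2, MACF1, MUC2, MYO7B, RESF1 and TSHZ1 (adjusted p = 0.0571 to 0.161). Without control replicate 4 they were 14 increases, with GSTZ1 the exception (adjusted p = 0.0567 to 0.128), and FLRT3, MACF1, MUC2, RESF1 and TSHZ1 (adjusted p = 0.0827 to 0.123). Without control replicate 1 they were 13 increases, all but GID8 and MRPL46 (adjusted p = 0.0686 to 0.114), and MACF1, MUC2, RESF1 and TSHZ1 (adjusted p = 0.0513 to 0.112). Without control replicate 5 they were 11 increases (adjusted p = 0.0548 to 0.143) and FLRT3, RESF1 and TSHZ1 (adjusted p = 0.0739 to 0.111). Each of control replicates 2 and 3 and lysolecithin high replicate 3 ended 8 increases, replicates 4 and 5 of the lysolecithin high birds ended 7 and 6, and these 5 omissions together ended only calls of FLRT3, IL8L2, MACF1, MUC2, RESF1 and TSHZ1 among the decreases (adjusted p = 0.0502 to 0.106 over all of them). Leaving out lysolecithin high replicate 2 ended no call of the 38. The omission of lysolecithin high replicate 1 left batch 1 without a bird of that group, and that of control replicate 5 left batch 3 without a control.

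Without the arrays in doubt 30 of the 38 passed. The other 8 were MUC2 (limma adjusted p = 0.0757), MOGAT2 (0.0522), ABHD12 (0.0578), HACD2 (0.0617), MGLL (0.0669), EDNRA (0.0672), EXTL3 (0.0689) and NDUFS4 (0.0824 as adjusted p). With the 5′ minus 3′ index as a term 20 decreases and 6 increases passed, and FLRT3, RESF1, MACF1 and 9 increases, ABHD12, MGLL, HACD2 and SLC25A22 among them, did not. With the segment score as a term 17 decreases and GID8 alone of the increases passed, while IL8L2 (adjusted p = 0.0742), MUC2 (adjusted p = 0.125), MYO7B, RESF1, TSHZ1 and MACF1 did not. With only the 10 arrays of the compared groups in the fit SPTBN5 and LCORL passed (adjusted p = 0.0398 for both).

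**Figure D4:**
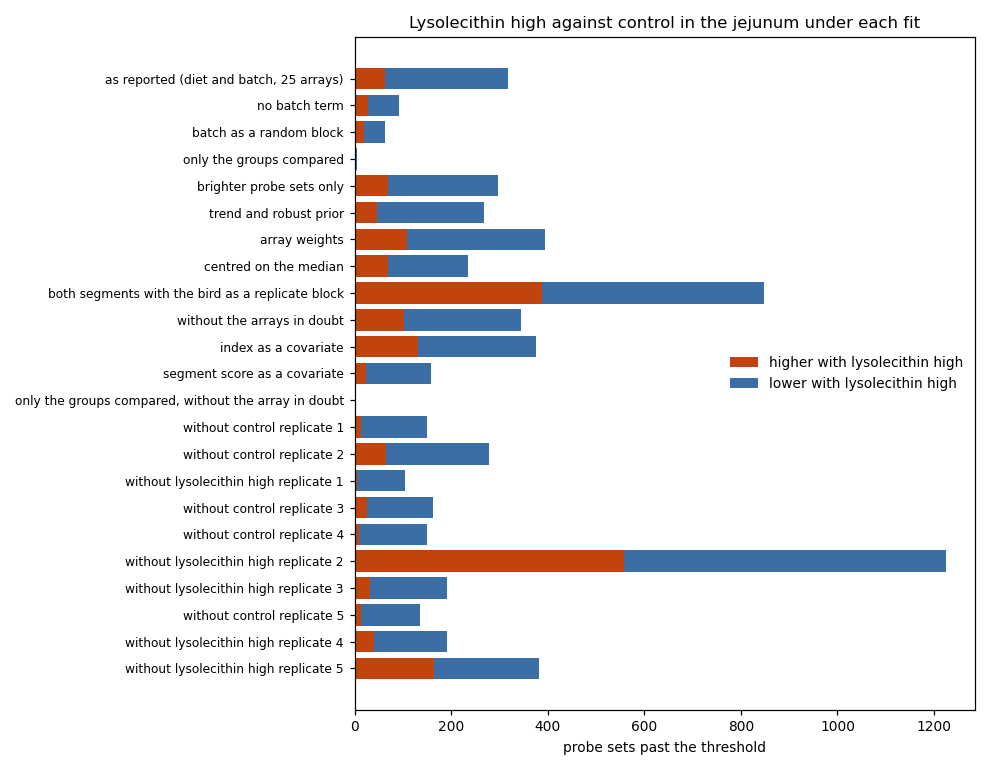
Number of probe sets past the threshold (horizontal axis) for lysolecithin high against control under the reported fit at the top and each alternative below, split into higher and lower with lysolecithin high. The counts run from 0 to 1224, against 318 in the reported fit.

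The dose of the mixture was examined by setting lysolecithin high against lysolecithin low, 500 against 250 g/T, in the same fit. This was 1 of 2 pairs of supplements compared, and p-values were adjusted over all probe sets within each pair. MARC1, a molybdenum-dependent reductase of the mitochondrial outer membrane, was the only one of 38382 probe sets to pass (0.00261%), and 5184 had an unadjusted p under 0.05. It was named after its values were seen. Its signal was 10.60, 9.95, 10.17, 10.29 and 10.00 in lysolecithin high birds, against 8.94, 9.36, 8.94, 8.71 and 8.95 in lysolecithin low birds. The groups did not overlap, and MARC1 was higher by 1.27 ± 0.19 (limma adjusted p = 0.04). Against the controls, at 8.87, 9.70, 9.56, 9.41 and 9.52, it had risen by 0.84 ± 0.19 (adjusted p = 0.0354). The count became 0 without lysolecithin high replicate 1 or 4 or lysolecithin low replicate 1, 2, 4 or 5, was 4 without lysolecithin low replicate 3, 20 without lysolecithin high replicate 2 and 272 without lysolecithin high replicate 5.

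None of the 38 named genes passed between the levels, and in 18 of them the 95% interval of the difference left out 0. Such an interval leaves out 0 where the unadjusted p is under 0.05, as it was for 5184 of all 38382 probe sets. The 38 genes were chosen by a comparison that used the same lysolecithin high birds. FGD6 was higher by 1.03 with lysolecithin high than with lysolecithin low (95% interval 0.60 to 1.45; limma adjusted p = 0.223), and EDNRA by 0.92 (0.51 to 1.33). PIK3CB had -0.21 (-0.59 to 0.17), ARFGEF1 -0.17 (-0.51 to 0.18) and RALGAPA2 -0.22 (-0.57 to 0.12), so a difference between levels of more than 0.59 lay outside the interval of each. Against control, lysolecithin low gave -1.22 for PIK3CB, -1.13 for ARFGEF1 and -1.06 for RALGAPA2, and lysolecithin high gave -1.43, -1.29 and -1.28; both comparisons use the same 5 control birds. COL3A1 differed by 2.64 between the levels (1.09 to 4.19; adjusted p = 0.223) and COL1A1 by 2.49 (1.01 to 3.98; adjusted p = 0.223), wide intervals that did not hold up after adjustment. Against control lysolecithin high gave 1.65 for COL3A1 and 1.47 for COL1A1, so lysolecithin low lay below control in both. Macrophage markers had a median of 1.14, cell cycle genes of 0.85, fibroblast and matrix genes of 0.83 and interferon response genes of -0.66 between the levels. All genes had 0.00 there, and no list member passed. Against control the medians of these lists were 0.83, 0.44, 0.75 and 0.28.

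Lysolecithin high was also set against LPC high, purified LPC at the matched 19 g/T. That feed held 1000 g/T of LPC with carrier, against 500 g/T of lysolecithin, so carrier and composition of the supplement cannot be told apart. No probe set passed (limma; 0% of 38382; smallest adjusted p = 0.205), and 2346 had an unadjusted p under 0.05. FGD6 was higher by 1.04 with lysolecithin high than with LPC high (95% interval 0.62 to 1.47; adjusted p = 0.722) and GSTZ1 by 0.86 (0.46 to 1.27; adjusted p = 0.723). MUC2 had -1.55 (-2.51 to -0.58; adjusted p = 0.797) and SPTBN5 -0.70 (-1.06 to -0.33; adjusted p = 0.761). MOGAT2 had 0.00 (-0.30 to 0.29), MAGI1 -0.01 (-0.25 to 0.23) and RALGAPA2 -0.15 (-0.50 to 0.20), narrow intervals around 0. IL8L2 had -0.32 (-1.50 to 0.85), an interval that still held a decrease of 1 log2 unit, and that of COL3A1, 0.20 (-1.35 to 1.75), held 1 log2 unit in either direction. In 18 of the 38 named genes the 95% interval left out 0. The count of probe sets past was 2 without lysolecithin high replicate 3 and 1 without replicate 5.

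In the ileum of the same diets 83 probe sets passed between lysolecithin high and control (limma; 0.216%), 4 higher and 79 lower. Without the 2 ileum arrays in doubt, 1 of which is a lysolecithin high array, 14 passed, all lower. Of the 38 genes named in the jejunum 7 passed there, all lower. ARFGEF1 had -1.28 ± 0.19 in the ileum (adjusted p = 0.00847) and RALGAPA2 -1.27 ± 0.18 (adjusted p = 0.00847), while MUC2 had -1.74 ± 0.34 (adjusted p = 0.03). Without the ileum arrays in doubt 3 of the 7 passed, ARFGEF1 at -1.21 ± 0.20 (adjusted p = 0.0428), RALGAPA2 at -1.19 ± 0.19 (adjusted p = 0.0373) and MYCBP2 at -0.98 ± 0.17 (adjusted p = 0.0467), and MUC2 had -1.40 ± 0.26 (adjusted p = 0.062). IL8L2 had -0.72 ± 0.85 (adjusted p = 0.862), MAGI1 -0.16 ± 0.18 (adjusted p = 0.851) and SLC25A22 0.73 ± 0.24 (adjusted p = 0.312). The segments come from the same birds, so these values are not independent of those in the jejunum.

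Whether the effect differed between segments was tested bird by bird, on the signal in the jejunum less that in the ileum. For lysolecithin high bird 4 both arrays scored as jejunum (4.96 and 3.35), and for control bird 2 both scored as ileum (-5.05 and -5.68), so their differences may not set one segment against the other. No probe set passed (limma; 0% of 38382; smallest adjusted p = 0.292), and 4283 had an unadjusted p under 0.05. EDNRA had a difference of effects of 0.88 (95% interval 0.50 to 1.26; adjusted p = 0.292) and MAGI1 of -0.60 (-1.03 to -0.17; adjusted p = 0.345). IL8L2 had -2.10 (-4.36 to 0.16; adjusted p = 0.476) and COL3A1 2.64 (0.88 to 4.39; adjusted p = 0.333). RALGAPA2 had -0.01 (-0.54 to 0.52) and ARFGEF1 -0.02 (-0.49 to 0.45). In 13 of the 38 named genes the 95% interval left out 0. Without the 4 birds that have an array in doubt, RALGAPA2 had -0.02 (-0.59 to 0.55), ARFGEF1 -0.05 (-0.60 to 0.49), IL8L2 -2.54 (-4.84 to -0.23; adjusted p = 0.597) and COL3A1 2.73 (0.76 to 4.70; adjusted p = 0.589), and again no probe set passed (smallest adjusted p = 0.589; 3113 at an unadjusted p under 0.05). The mitochondrial ribosome list had a median of 0.35 in this difference and -0.05 in the ileum itself, with no member past in either. This was not particular to that list. The cytosolic ribosome had 0.31 and -0.23, the respiratory chain 0.31 and -0.09, and cell cycle genes 0.73 and -0.25. Macrophage markers had 0.75 and 0.04, and fibroblast and matrix genes 0.65 and -0.04, where all genes had 0.03 and 0.01.

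**Figure D5:**
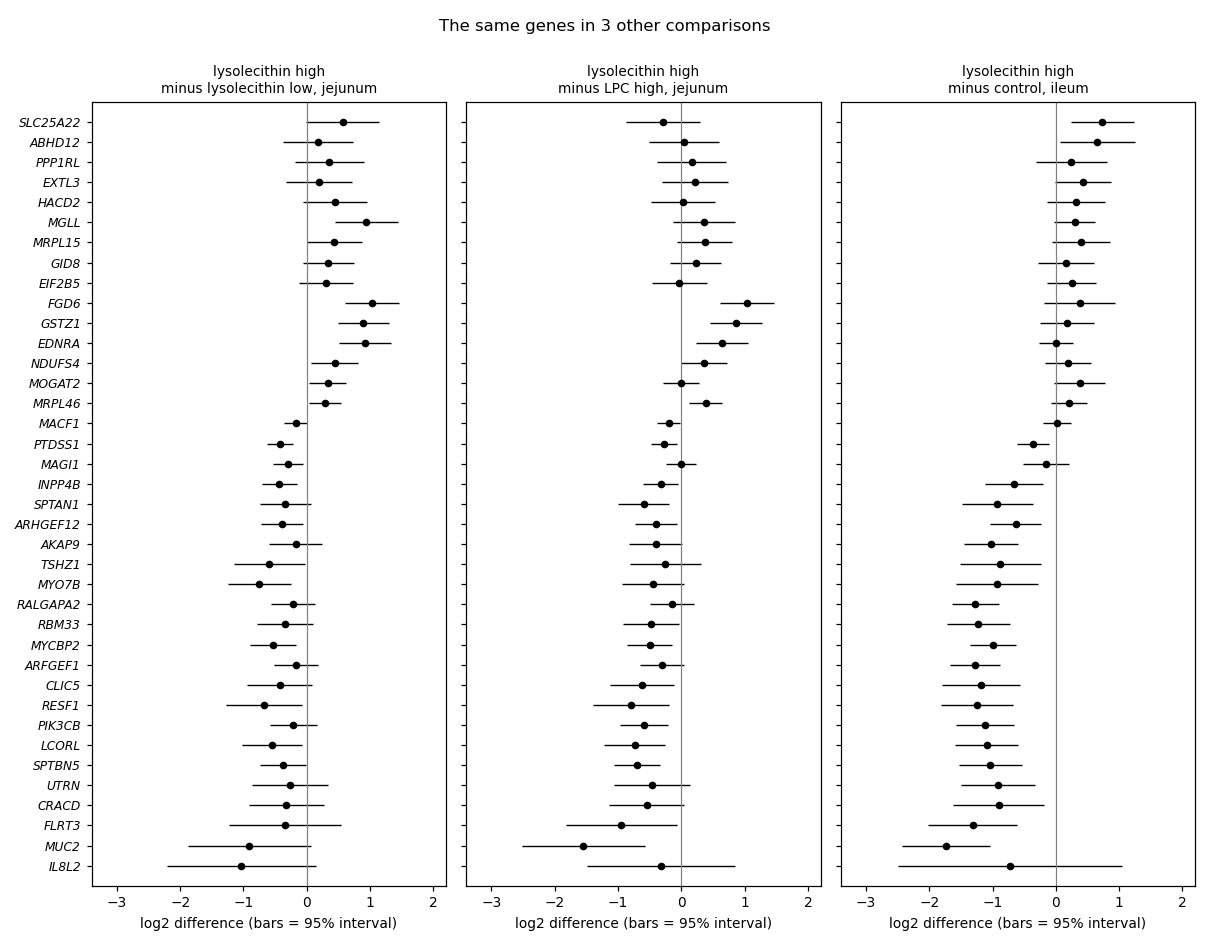
Log2 differences with 95% intervals (horizontal axis) of the 38 named genes for lysolecithin high minus lysolecithin low and minus LPC high in the jejunum, and minus control in the ileum. Genes are in the order of their jejunum difference from control; the ileum values reach -1.74 (MUC2), and none of the genes passed in the first 2 panels.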

How the data were processed

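RNA of 50 mucosal scrapings was measured on the Affymetrix chicken genome array. The authors deposited log2 signals per probe set; RMA and limma are named in the submitters' processing notes, with no version given in the sources used here. The table holds 38535 probe sets, and 38382 entered the tests after removal of 153 controls and reporters; dim probe sets were kept. The platform annotation gave 1 symbol to 27168 of them (13009 genes), several to 177 and none to 11037. For 26853 probe sets the gene ID matched a RefSeq table (GRCg7b), and its symbol was used in place of the platform's. Coordinates are not stated, since the sources name no build for the array.

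The 25 jejunum arrays were fitted with diet and batch in limma 3.58.1 (R 4.3.3), and the difference between segments on 25 birds with the same terms. The fit was tested on simulated data with independent noise and changes larger than most of those reported here. It therefore does not tell how the fit does at the reported differences or with genes that vary together. Segment score and index were compared by exact permutation tests (scipy 1.17.1). Replicates are separate birds, numbered in accession order within a group.

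Named genes are, by the probe set of lowest p, the 12 largest increases and 18 largest decreases past the threshold with a proper symbol, every list member past it, the up to 4 leading members of each of 35 lists by the probe set of highest mean, COL1A1, COL1A2, COL3A1 and IL8L1. The members, lists and tests were chosen with earlier results of these data known. Alternative fits left out batch or took it as random, held only the 10 arrays compared, kept brighter probe sets, used array weights, a robust prior with trend or centred arrays, joined both segments with bird as a block, dropped the arrays in doubt, added the index or segment score, and left out each bird in turn. The fit of the groups compared without control replicate 2 and the ileum fit without its arrays in doubt were added after the data were seen. Raw scans were not used here.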

Additional observations from a re-analysis of the deposited data

Results flagged for a closer look

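Values that stood apart within a group of 5 birds were looked for in the named genes past the threshold, the collagens named by rule, IL8L1, the index and the segment score, over 90 groups. Chance alone marks about 1 in 20 such groups, and 6 values were marked. ARFGEF1 was 5.69 in lysolecithin high replicate 1, where the other 4 birds had 7.73 to 8.09. SLC25A22 was 7.57 in lysolecithin high replicate 2, against 8.22 to 8.48 in the others. IL8L1 was 7.87 in lysolecithin high replicate 5, against 4.96 to 5.75. MYO7B was 6.68 in control replicate 1, against 7.40 to 7.60, and MRPL46 was 7.73 in the same bird, against 7.80 to 7.82. The segment score was 1.82 in lysolecithin high replicate 3, against 4.72 to 5.41 in its group.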

How the results depend on the processing

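The count of 318 probe sets (64 higher, 254 lower) rested on the fit. It was 92 with no term for batch, 63 when batch was random, 4 when the fit held only the compared groups (LCORL, SPTBN5, ARAP2 and a probe set without a symbol, all lower), 159 with the segment score as a term and 0 in the added fit of the groups compared without control replicate 2 (5886 at an unadjusted p under 0.05). Fitting the segments jointly, with bird as a random replicate block, gave 847 (389 higher, 458 lower), with 285 shared; within a segment the diets hold different birds, so no pairing across diets exists. Counts within 1.5 times were 296 for brighter probe sets, 267 with a trend and robust prior, 395 with array weights, 235 when centred, 345 without the arrays in doubt (231 shared) and 375 with the index (173 shared). The higher share of the calls was 20.1% as reported, 45.9% with both segments, 35.2% with the index, 30.4% without a batch term, 30.2% with the random block and 15.1% with the segment score. With 1 bird left out it was 3.81% (4 higher, 101 lower, without lysolecithin high replicate 1) to 45.6% (558 higher, 666 lower, without lysolecithin high replicate 2). The cause of these shifts was not tested. Leaving out 1 bird gave 105 to 1224: lysolecithin high replicate 1 gave 105, replicates 3 and 4 gave 191 each and replicate 2 gave 1224, and control replicates 1 and 4 gave 149 each, replicate 3 gave 163 and replicate 5 gave 135.

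Against lysolecithin low the count of 1 was 0 without a batch term and with the index, and 0 to 272 with 1 bird left out. Against LPC high it was 0 to 2, and for the difference between segments 0 to 1, with 1 bird left out. In the ileum the count of 83 was 14 without the arrays in doubt, a fit added after the data were seen. With 1 bird left out the index difference of 0.33 was 0.25 to 0.44, at 0.44 without lysolecithin high replicate 4 (exact p = 0.0159), and the segment score difference of 3.68 was 2.24 to 4.75, at 4.75 without control replicate 5 (exact p = 0.0476). COL1A2 had -0.098 to 0.082 over the omissions, with -0.098 without lysolecithin high replicate 1, -0.0042 without control replicate 3 and -0.00020 without lysolecithin high replicate 4. Of 833 values of the 38 named genes past the threshold under the alternatives, 536 kept direction and call and 297 kept direction only. Those genes were chosen by the reported fit and the alternatives used the same birds, so a kept direction was likely beforehand.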
